A study of Mus musculus with 12 samples.

Results

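The BMP genes described here are 10 loci that cover the steps of bone morphogenetic protein (BMP) signalling: the ligand genes Bmp2, Bmp4 and Bmp7, the secreted antagonist genes Nog and Chrd, the inhibitor genes Bambi and Smad6, and the target genes Id1, Id2 and Id3. A locus was taken when the authors' transcript assembly matched it to a gene of that name, and each name matched 1 locus. The 10 loci stand among 80012 in the deposited count table and among 17922 that passed the filter on low values, which all 10 passed. Poly(A) RNA was sequenced in 12 libraries, 4 from embryonic stem cells (ESC, day 0) and 4 each from Eomes-negative (Eo−) and Eomes-positive (Eo+) cells at day 3 of differentiation. All 3 groups came from 1 reporter line, labelled C57BL/6, in which EGFP reports the expression of Eomes, which encodes a T-box factor needed for mesendoderm. ESCs were kept on mouse embryonic fibroblast feeders with serum and leukaemia inhibitory factor. Day 3 cells came from dissociated embryoid bodies and were separated by GFP fluorescence, so the gate reads the reporter and not a cell type. In each group the libraries carry the numbers 1, 2, 5 and 6, and the methods place them in 4 differentiation sets without saying that a number marks a set.

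BMP ligands are secreted dimers that bring together type I and type II receptor kinases on the cell surface. The activated type I receptor phosphorylates the transcription factors Smad1, Smad5 and Smad9, which enter the nucleus with Smad4 and bind regulatory DNA of target genes such as the Id genes and Smad6. Noggin and chordin bind the ligands outside the cell, and in the gastrulating embryo BMP activity helps to set the fates of the mesoderm that leaves the primitive streak.

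Levels are given in CPM, that is, counts scaled to the library size after correction by the trimmed mean of M-values (TMM), and listed in the order of replicates 1, 2, 5 and 6. Fold changes, standard errors (SE) and p-values come from limma-voom fitted to all loci, and calls were made at a threshold of 0.05 on the p adjusted by Benjamini-Hochberg over 17922 loci. Total locus counts ranged from 648413022 to 837308168, so that 3 counts amounted to at most 0.00467 CPM, far below every value of the 10 BMP genes. These totals are larger than the number of reads per sample that the methods state, so what a count stands for is not certain and the floor is one of counts, not of reads. Eomes, the gene behind the sort, stood at 36.5 to 57.2 CPM in ESC, 116 to 168 CPM in Eo− and 446 to 641 CPM in Eo+ libraries. The summed level of 5 pluripotency genes was 2415 to 3260 CPM in ESC, 1124 to 1486 CPM in Eo− and 435 to 760 CPM in Eo+, and that of 6 mesendoderm genes was 92.1 to 288, 249 to 510 and 1716 to 2969 CPM. Genes of 4 other cell types were read as well, because a culture or gate could hold such cells. The sum of 10 genes of feeder-type fibroblasts was 128 to 329 CPM in ESC against 32.6 to 43.2 in Eo− and 42.4 to 84.1 in Eo+ libraries. S100a4, 1 of the 10, averaged 11.9 CPM in ESC and 0.0104 and 0.00744 CPM in Eo− and Eo+. Not all of the 10 fell. Pdgfrb was called higher in Eo+ than in ESC (11.5 against 6.9 CPM), and Thy1 higher in Eo− than in ESC (21.3 against 14.1 CPM). The sum of 8 visceral endoderm genes was at most 8.97 CPM in ESC and 13.7 CPM in Eo− and reached 96.0, 5.73, 50.7 and 20.5 CPM in Eo+, while Apoa4 stayed under the floor of 3 counts in every ESC library. Amn went the other way, at 2.06 CPM on average in ESC, 0.765 CPM in Eo− and 0.664 CPM in Eo+, lower in both fractions. Cubn (2.55, 0.92 and 1.59 CPM) was not called. The sum of 8 genes of early blood and endothelium was 34.7 to 62.2 CPM in ESC, 248, 48.6, 26.2 and 46.6 CPM in Eo−, and 416, 198, 93.7 and 325 CPM in Eo+. Different genes made up that sum, with Pecam1 at 48.0 CPM on average in ESC and Kdr at 198 CPM in Eo+, and members went both ways between the fractions: Kdr and Tal1 were higher in Eo+ than in Eo−, Pecam1 and Hba-x were lower, and Hbb-bh1 (2.17 against 19.9 CPM) and Cdh5 (6.15 against 13.8 CPM) were not called. The sum of 4 neuroectoderm genes was 48.8 to 96.6 CPM in ESC, 63.3 to 124 CPM in Eo− and 45.1 to 83.3 CPM in Eo+, most of it from Nes, which was not called in any comparison. The other 3 genes, Sox1, Pax6 and Neurog3, were lower in all 3 comparisons, and Pax6 averaged 7.23 CPM in ESC, 0.573 CPM in Eo− and 0.0764 CPM in Eo+. In sorted or whole populations such as these, fewer cells that express a gene and less RNA of it per cell cannot be told apart.

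Relative to ESC, 7 of the 10 BMP genes were higher in Eo+ cells and none was lower, where 35.8% of all loci tested were higher and 36.1% lower. The 7 were Bmp2, Bmp7, Chrd, Bambi, Smad6, Id1 and Id3, and their fold changes ran from 1.72 for Id3 to 29.6 for Bmp2. In Eo− cells 3 genes were higher than in ESC (Bmp7, Chrd and Id3) and 1 was lower (Bmp4), against 30.9% of loci higher and 31.3% lower. Between the sorted fractions Eo+ cells had more of 8 genes and less of none, against 23.0% and 24.6% of loci. These 8 were the 7 genes above and Bmp4. This fit does not pair the libraries. A fit of the 8 sorted libraries alone, with the replicate number as a block, was added after the data were seen. It called the same 8 genes higher and Id2 lower (adjusted p = 0.0458), with 5173 of 17922 loci higher and 5219 lower. The median log2 fold change of the 10 genes was 1.73, 0.40 and 1.62 in Eo+ vs ESC, Eo− vs ESC and Eo+ vs Eo−, and that of all loci 0.00, 0.02 and -0.01. Both comparisons with ESC use the same 4 ESC libraries and are therefore not independent of each other.

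**Figure D1:**
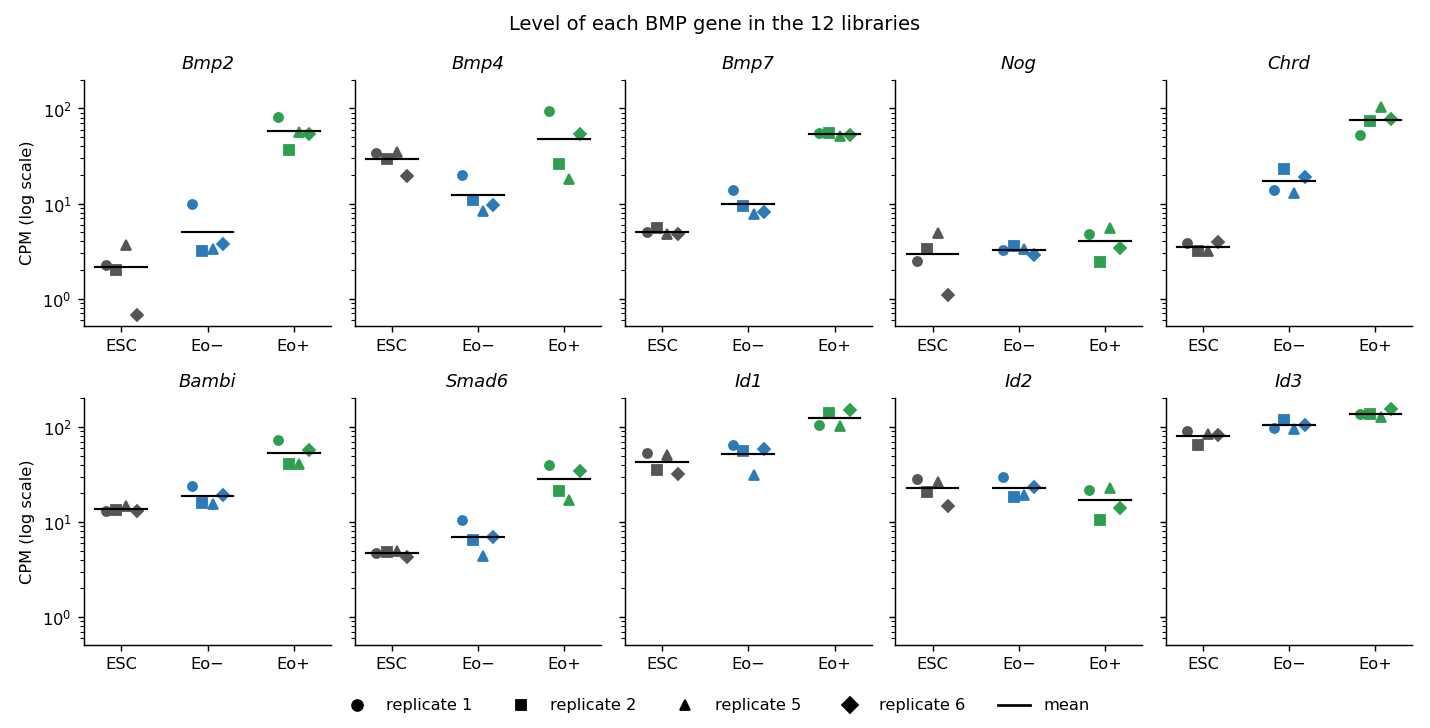
Level in CPM (log scale) of each BMP gene in the 12 libraries, with 1 marker shape per replicate number and a line at the mean of the 4 libraries of a group. Bmp7 sits at 51.9 to 55.3 CPM in all Eo+ libraries, whereas Bmp4 spreads from 18.1 to 94.6 CPM there.

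The 3 ligand genes, which encode the growth factors that start the signal, differed in pattern. Bmp2 (XLOC_039157, plus strand of chr2:133552044-133562978 in mm10) stood at 2.25, 2.01, 3.65 and 0.674 CPM in ESC, 9.88, 3.16, 3.31 and 3.79 CPM in Eo−, and 82.0, 36.6, 56.2 and 54.2 CPM in Eo+. All Eo+ libraries lay above all others, and replicate 1 was the highest in both sorted fractions. Its log2 fold change reached 4.89 ± 0.47 (SE, adjusted p = 5.61e-07) in Eo+ vs ESC and 3.61 ± 0.40 (adjusted p = 1.05e-05) in Eo+ vs Eo−. The value for Eo− vs ESC was 1.27 ± 0.56 and missed the threshold (adjusted p = 0.0617). That estimate dropped to 0.88 without Eo− replicate 1 and to 0.82 without ESC replicate 6, and it passed without ESC replicate 5 (1.61, adjusted p = 0.0373) or without Eo+ replicate 1 or 2 (adjusted p = 0.0368 and 0.0386), with edgeR's quasi-likelihood test (adjusted p = 0.0339), with DESeq2 (adjusted p = 0.0453) and with the replicate number as a block (adjusted p = 0.00499).

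Bmp7 (XLOC_042915, minus strand of chr2:172826865-172940949) was the most even of the ligands. It was measured at 4.98, 5.49, 4.74 and 4.78 CPM in ESC, 13.9, 9.49, 7.67 and 8.14 CPM in Eo−, and 55.3, 54.6, 51.9 and 53.1 CPM in Eo+. The 3 groups did not overlap, and the coefficient of variation among Eo+ libraries was 2.81%, the lowest of the 10 genes in that group. Bmp7 rose 10.8-fold in Eo+ vs ESC (log2 fold change 3.43 ± 0.15, adjusted p = 7.02e-10). It rose 1.92-fold in Eo− vs ESC (0.94 ± 0.17, adjusted p = 0.000342) and was 5.6-fold higher in Eo+ than in Eo− (2.49 ± 0.13, adjusted p = 5.71e-08).

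Bmp4 (XLOC_023202, minus strand of chr14:46121848-46390857) was the ligand with the highest level in ESC. This locus spans 269 kb in the assembly, wider than the annotated gene, and holds no other annotated gene. Its level was 34.2, 29.2, 35.2 and 19.6 CPM in ESC, 19.9, 10.8, 8.43 and 9.71 CPM in Eo−, and 94.6, 26.3, 18.1 and 53.5 CPM in Eo+. Eo+ replicates 1 and 6 lay above every ESC library, Eo+ replicate 2 inside the ESC range and Eo+ replicate 5 below it, a 5.21-fold span within the group. Against ESC, Bmp4 in Eo+ thus had a log2 fold change of 0.44 ± 0.42 (adjusted p = 0.353), and it was 0.01 without Eo+ replicate 1 and 0.83 without Eo+ replicate 5. Bmp4 fell by 1.32 ± 0.50 on the log2 scale in Eo− vs ESC (adjusted p = 0.0324). The call in Eo− was lost when ESC replicate 1, 2 or 5 or Eo− replicate 2, 5 or 6 was left out, with adjusted p-values from 0.0572 to 0.0832, and ESC replicate 6 (19.6 CPM) overlapped Eo− replicate 1 (19.9 CPM). Between the fractions the log2 fold change was 1.77 ± 0.48 (adjusted p = 0.00865), and Bmp4 was higher in Eo+ in all 4 number-matched pairs, by 1.11 to 2.46 on the log2 scale.

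A non-annotated locus (XLOC_021402, plus strand of chr14:46390626-46399407) starts inside the Bmp4 locus and runs the other way. It was measured at 0.667, 0.807, 0.763 and 1.19 CPM in ESC, 0.216, 0.184, 0.183 and 0.168 CPM in Eo−, and 0.325, 0.0983, 0.115 and 0.246 CPM in Eo+. All ESC libraries were above all day 3 libraries, and the fractions overlapped. Its level fell by 2.26 ± 0.33 in Eo+ vs ESC (adjusted p = 3.41e-05) and by 2.14 ± 0.32 in Eo− vs ESC (adjusted p = 6.98e-05) on the log2 scale, and differed by -0.11 ± 0.38 between the fractions (adjusted p = 0.830). Reads were counted by strand, so the Bmp4 values above exclude this transcript.

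Compared per length, as FPKM (CPM divided by the summed exon length in kilobases), the shares of these 3 ligand genes in their sum differed between the groups. Other ligand genes are left out of this sum. Bmp4 accounted for 86.8% ± 1.12 (SD, n = 4) of the summed FPKM of the 3 ligand genes in ESC, 56.8% ± 1.15 in Eo− and 36.6% ± 13.5 in Eo+. The share of Bmp2 was 4.24% ± 1.77, 15.9% ± 3.27 and 35.0% ± 7.04, and that of Bmp7 8.91% ± 2.39, 27.3% ± 3.0 and 28.4% ± 9.14. Within Eo+ the Bmp4 share ran from 20.5% in replicate 5 to 51.1% in replicate 1. The summed ligand level was 8.47 to 15.1 FPKM in ESC, 5.66 to 13.0 FPKM in Eo− and 31.2 to 68.8 FPKM in Eo+, so every Eo+ library lay above all others while ESC and Eo− overlapped.

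The antagonist genes Nog and Chrd, whose proteins bind BMPs and keep them from their receptors, did not move alike. Nog (XLOC_013094, minus strand of chr11:89300638-89302332) was at 2.49, 3.30, 4.93 and 1.08 CPM in ESC, 3.26, 3.53, 3.36 and 2.88 CPM in Eo−, and 4.76, 2.41, 5.58 and 3.39 CPM in Eo+. All 3 groups overlapped, and the lowest and the next to highest of the 12 values were both ESC libraries. Nog was not called in Eo+ vs ESC (log2 fold change 0.56 ± 0.37, adjusted p = 0.187), in Eo− vs ESC (0.32 ± 0.37, adjusted p = 0.471) or in Eo+ vs Eo− (0.24 ± 0.35, adjusted p = 0.603). The estimate for Eo+ vs ESC was 0.16 without ESC replicate 6 and 0.87 without ESC replicate 5, which then passed (adjusted p = 0.0413).

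Chrd (XLOC_027323, plus strand of chr16:20732186-20742384) was at 3.86, 3.14, 3.18 and 3.90 CPM in ESC, 14.0, 23.0, 13.0 and 19.2 CPM in Eo−, and 52.0, 74.1, 103 and 76.7 CPM in Eo+. The groups were fully separate, with the lowest Eo+ value in replicate 1 and the highest in replicate 5. Chrd rose 21.2-fold in Eo+ vs ESC (log2 fold change 4.40 ± 0.29, adjusted p = 1.78e-08) and 4.81-fold in Eo− vs ESC (2.27 ± 0.31, adjusted p = 3.08e-05). It was 4.40-fold higher in Eo+ than in Eo− (2.14 ± 0.21, adjusted p = 3.90e-06).

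With these differences, Chrd made up 26.5% ± 14.5 of the summed antagonist FPKM in ESC, 55.5% ± 6.85 in Eo− and 81.7% ± 6.68 in Eo+ (SD, n = 4). The sum itself was 1.19 to 3.36 FPKM in ESC, 3.83 to 5.35 FPKM in Eo− and 10.2 to 18.0 FPKM in Eo+, without overlap between groups. The ratio of summed ligand to summed antagonist FPKM was 7.13, 5.25, 4.48 and 7.10 in ESC, 3.32, 1.28, 1.48 and 1.44 in Eo−, and 6.74, 2.61, 1.83 and 3.54 in Eo+. The ESC values lay above all Eo− values, and among the Eo+ values replicate 1 lay inside the ESC range and replicates 2 and 5 inside the Eo− range. These are RNA ratios per length and say nothing of protein amounts. They cover the member genes only and not all BMP antagonists. Fst, left out of the sum, averaged 7.71 FPKM in ESC, 24.3 FPKM in Eo− and 46.2 FPKM in Eo+. Grem1, also left out, averaged 3.26, 0.1 and 0.138 FPKM in the same order. The ratio and its order between groups thus depend on the genes summed.

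**Figure D2:**
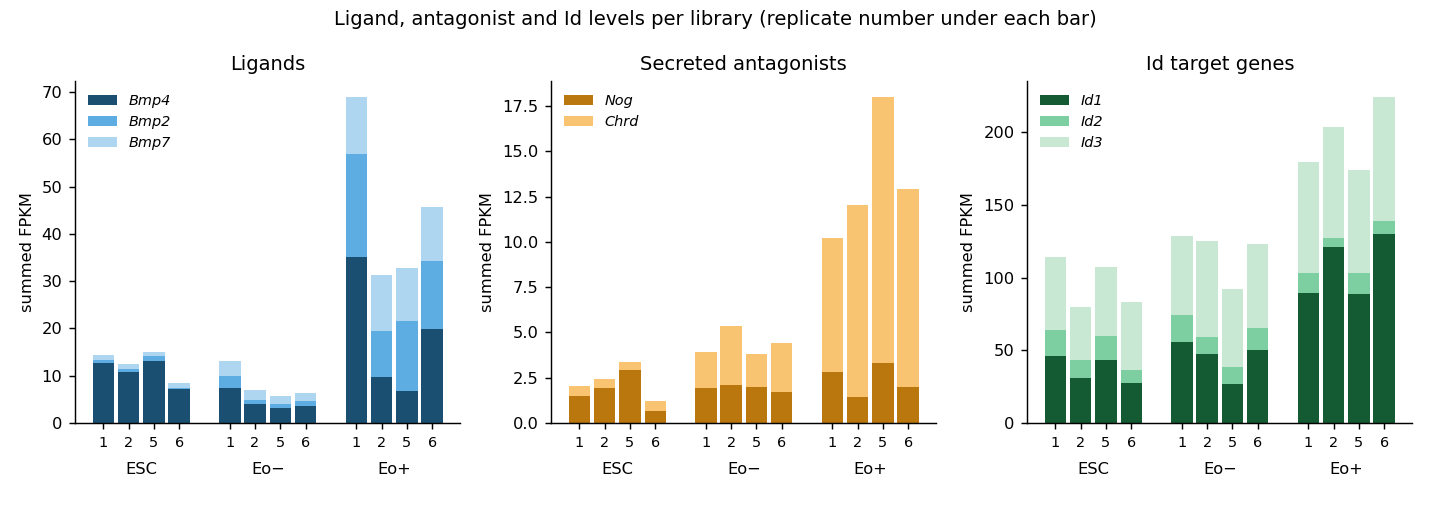
Summed level in FPKM of the 3 ligand genes, the 2 secreted antagonist genes and the 3 Id genes in each library, stacked by gene, with the replicate number under each bar and a separate scale per panel. Bmp4 fills most of the ligand bars in ESC (85.8% to 88.4%), whereas Eo+ bars hold all 3 ligands.

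Bambi and Smad6 encode inhibitors that act at the receptor: Bambi is a pseudoreceptor without a kinase domain, and Smad6 is an inhibitory Smad whose gene is itself a BMP target. Bambi (XLOC_032799, plus strand of chr18:3506889-3516710) was at 13.1, 13.5, 14.7 and 13.0 CPM in ESC, 24.1, 15.9, 15.3 and 19.2 CPM in Eo−, and 73.0, 40.9, 41.0 and 56.8 CPM in Eo+. Eo− values lay just above the ESC values and all Eo+ values well above both. The change on the log2 scale came to 1.92 ± 0.20 in Eo+ vs ESC (adjusted p = 1.36e-06) and 1.48 ± 0.19 in Eo+ vs Eo− (adjusted p = 3.52e-05). The value for Eo− vs ESC was 0.44 ± 0.22 (adjusted p = 0.101), although the libraries did not overlap, and it passed without Eo+ replicate 1 (adjusted p = 0.0320), with edgeR (adjusted p = 0.0457) and with the replicate block (adjusted p = 0.0139).

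Smad6 (XLOC_072861, minus strand of chr9:63953076-64022059) was at 4.77, 4.79, 4.91 and 4.30 CPM in ESC, 10.4, 6.40, 4.34 and 6.90 CPM in Eo−, and 40.2, 21.3, 17.1 and 34.6 CPM in Eo+. Eo+ libraries were again separate from the rest, and Eo− replicate 5 lay inside the ESC range. Smad6 rose 5.68-fold in Eo+ vs ESC (log2 fold change 2.51 ± 0.32, adjusted p = 7.95e-06) and was 3.96-fold higher in Eo+ than in Eo− (1.98 ± 0.30, adjusted p = 0.000115). For Eo− against ESC the estimate was 0.52 ± 0.37 (adjusted p = 0.229), and it passed with the replicate block (0.57, adjusted p = 0.0252).

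The Id genes encode helix-loop-helix proteins that lack a DNA-binding region and hold back other factors of that family; they are used as readouts of BMP signalling. Id1 (XLOC_039395, plus strand of chr2:152736251-152737410) was at 53.2, 35.6, 50.5 and 31.8 CPM in ESC, 64.4, 55.3, 31.0 and 58.6 CPM in Eo−, and 104, 140, 103 and 151 CPM in Eo+. ESC and Eo− overlapped, since Eo− replicate 5 was below all ESC libraries, and Eo+ was separate. Id1 rose 2.91-fold in Eo+ vs ESC (log2 fold change 1.54 ± 0.22, adjusted p = 2.78e-05) and was 2.42-fold higher in Eo+ than in Eo− (1.27 ± 0.22, adjusted p = 0.000335). The value in Eo− vs ESC was 0.27 ± 0.23 (adjusted p = 0.336) and 0.50 without Eo− replicate 5 (adjusted p = 0.0397).

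Id3 (XLOC_049121, plus strand of chr4:136143497-136145755) was at 90.2, 64.9, 84.9 and 83.0 CPM in ESC, 98, 118, 95.3 and 104 CPM in Eo−, and 137, 137, 127 and 153 CPM in Eo+. The 3 groups did not overlap although the steps between them were small. On the log2 scale Id3 changed by 0.78 ± 0.10 in Eo+ vs ESC (adjusted p = 9.55e-06), 0.37 ± 0.10 in Eo− vs ESC (adjusted p = 0.00655) and 0.42 ± 0.10 in Eo+ vs Eo− (adjusted p = 0.00376).

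Id2 (XLOC_015782, minus strand of chr12:25093793-25096760) went apart from the other Id genes. It was at 28.6, 20.5, 26.2 and 14.8 CPM in ESC, 29.5, 18.5, 19.3 and 23.3 CPM in Eo−, and 21.5, 10.4, 22.7 and 13.9 CPM in Eo+. All groups overlapped, and Eo+ replicate 2 was the lowest library. Id2 was not called in Eo+ vs ESC (log2 fold change -0.44 ± 0.26, adjusted p = 0.147), Eo− vs ESC (0.02 ± 0.25, adjusted p = 0.957) or Eo+ vs Eo− (-0.46 ± 0.26, adjusted p = 0.164). It was lower in Eo+ than in Eo− in 3 of 4 number-matched pairs, and a fit of the 8 sorted libraries with the replicate number as a block, added after the data were seen, called it (-0.42, adjusted p = 0.0458). The planned block over all 12 libraries did not call Id2 between the fractions. The comparison with ESC also passed without ESC replicate 6 (-0.61, adjusted p = 0.0433) or with the block over all 12 libraries (-0.42, adjusted p = 0.0418).

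**Figure D3:**
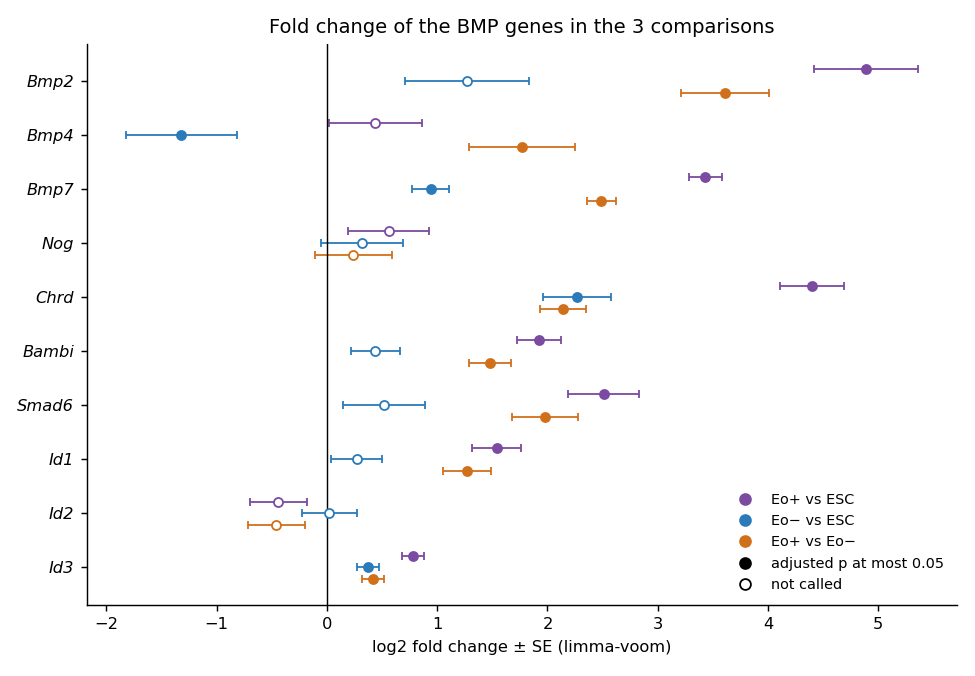
Log2 fold change with its SE (limma-voom) of each BMP gene in the 3 comparisons, filled where the gene was called and open otherwise. Bmp2 and Chrd lie farthest to the right in Eo+ vs ESC (4.89 and 4.40), Nog and Id2 are open throughout, and Bmp4 is the gene filled on both sides of 0.

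Id1 and Id3 were the most abundant of the 10 genes per length in every group. In ESC the order by mean FPKM was Id3 (45.1), Id1 (36.9), Id2 (14.1), Bmp4 (11), Bambi (2.22), Nog (1.74), Smad6 (1.46), Bmp7 (1.07), Bmp2 (0.570) and Chrd (0.501). The neighbours Id3 and Id1, Id2 and Bmp4, Bambi and Nog, Nog and Smad6, and Bmp2 and Chrd overlapped across libraries there. In Eo+ it was Id1 (107), Id3 (77.3), Bmp4 (17.9), Bmp2 (15.2), Bmp7 (11.5), Chrd (10.9), Id2 (10.7), Smad6 (8.83), Bambi (8.66) and Nog (2.38), with overlap between every pair of neighbours from Bmp4 to Bambi. The lead of Id1 over Id3 in Eo+ depends on the length used, since Id3 reached 108 FPKM with the length of its longest assembled transcript, and Chrd moved from 10.9 to 16.9 FPKM by the same change. In Eo− the order was Id3 (58.0), Id1 (45.1), Id2 (14.2), Bmp4 (4.53), Bambi (3.05), Chrd (2.46), Smad6 (2.19), Bmp7 (2.11), Nog (1.92) and Bmp2 (1.34), with overlap between Id3 and Id1 and between all neighbours from Bmp4 on. The place of Chrd changed with the length in all groups, since by its longest transcript it stood above Bmp2 in ESC (0.776 against 0.579 FPKM), above Bambi in Eo− (3.81 against 3.05 FPKM) and above Bmp2 and Bmp7 in Eo+. Id2 took 14.6% ± 2.29 of the summed Id FPKM in ESC, 12.2% ± 2.2 in Eo− and 5.70% ± 2.53 in Eo+ (SD, n = 4). The sum of the 3 Id genes was 79.8 to 114 FPKM in ESC, 92.0 to 129 FPKM in Eo− and 174 to 224 FPKM in Eo+.

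Libraries of 1 group did not vary alike for all BMP genes. In Eo+, Bmp4 and Smad6 had the same order of replicates (1, 6, 2, 5), which was also that of the target gene Msx1, of the blood and endothelium genes Kdr and Tal1, and of the blood and endothelium sum, which Kdr dominates there. Chrd ran nearly opposite, with the order 5, 6, 2, 1, and Bmp7 hardly varied. In Eo−, replicate 1 was the highest library for Bmp2, Bmp4, Bmp7, Bambi, Smad6, Id1 and Id2, and it also held the highest sums of blood and endothelium (248 CPM) and visceral endoderm genes (13.7 CPM). Eo+ replicate 1 had the highest visceral endoderm sum (96.0 CPM) and the highest values of Bmp2, Bmp4, Bmp7, Bambi and Smad6. In ESC, replicate 6 was the lowest library for Bmp2, Bmp4, Nog, Bambi, Smad6, Id1 and Id2 and had the lowest sums of feeder-type genes (128 CPM) and of mesendoderm genes (92.1 CPM). The order of the mesendoderm sum in ESC (5, 2, 1, 6) was that of Nog, Bambi and Smad6, and the order of the feeder-type sum (1, 5, 2, 6) was that of Id1 and Id2. These orders rest on 4 libraries each and were noticed after the values were seen, and the part of other cell types in the BMP values was not tested.

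**Figure D4:**
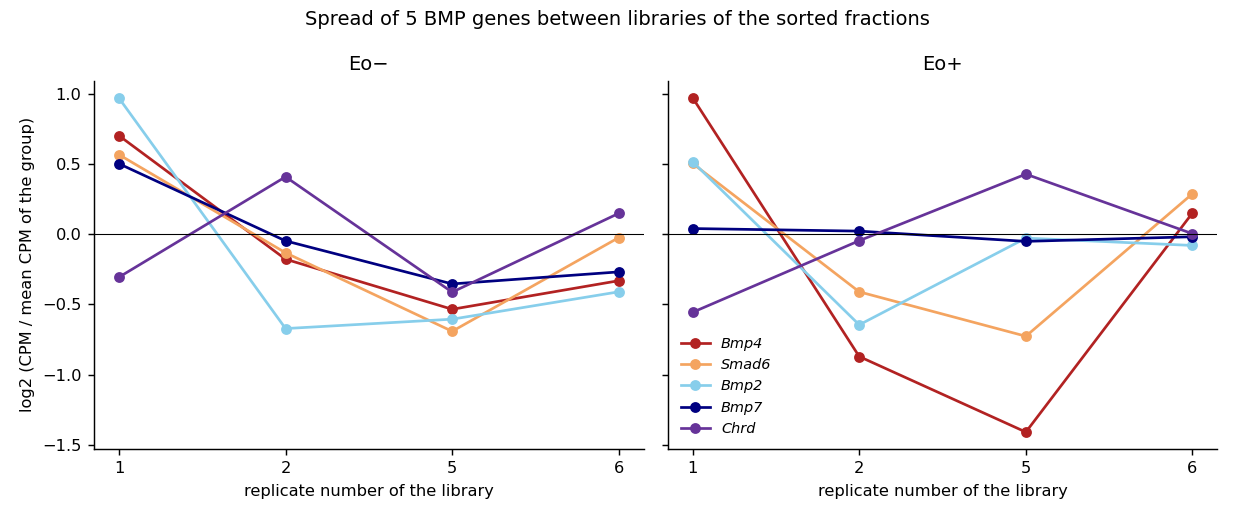
Log2 of the CPM of 5 BMP genes over the mean of their group, by replicate number, in the 4 Eo− and 4 Eo+ libraries, with lines that only join the points of a gene. In Eo+ Bmp4 and Smad6 are highest in replicate 1 and lowest in replicate 5, Chrd is lowest in replicate 1 and highest in replicate 5, and Bmp7 stays close to 0.

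The difference between the sorted fractions was of 1 sign in every pair of equal number for 8 genes. The share of all loci with 1 sign in every such pair was not computed, so this count is not read as a trait of these genes. Bmp2 was higher in Eo+ by 3.05 to 4.09 on the log2 scale, Bmp7 by 1.99 to 2.76, Chrd by 1.69 to 2.99, Smad6 by 1.73 to 2.33, Bambi by 1.36 to 1.60, Id1 by 0.69 to 1.74 and Id3 by 0.21 to 0.55. Bambi had the narrowest range among the genes with a change over 1 on this scale, while its level in Eo+ varied 1.78-fold between libraries.

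Start-site regions from RefSeq (GRCm38.p6) were used for 5 of the 10 genes, Bmp4, Chrd, Smad6, Id2 and Id3, those in the table of windows at hand, and the other 5 were not analysed here. The windows ran from 250 bases before to 50 bases after the start. They were searched on both strands for letters to which Smad proteins are known to bind: the palindrome GTCTAGAC, the CAGAC element, which the palindrome does not contain, and the GC-rich motifs GGCGCC and GCCGNCGC. Matches are shown because they sit at genes that rose in Eo+ (Smad6, Chrd, Id3) and at Id2, which was not called. Each line is a 30-base stretch, 5′ to 3′ along the gene's strand, with the matched letters in capitals.
Smad6, GTCTAGAC: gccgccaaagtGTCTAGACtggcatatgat
Chrd, GCCGNCGC: aacgggccagaGCCGGCGCctagggcacta
Id3, CAGAC, distal: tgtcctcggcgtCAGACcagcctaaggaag
Id3, CAGAC, proximal, read on the other strand: ggacccttggcgGTCTGttttgaataaggg
Id2, GGCGCC: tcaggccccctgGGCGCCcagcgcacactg
The Smad6 stretch is chr9:64022045-64022074 (minus strand), and its palindrome covers positions -4 to 4 around the start site, counted without a position 0. The Chrd stretch is chr16:20732910-20732939 (plus strand), with the motif from -206 to -199 and a GGCGCC that overlaps it from -203 to -198. The Id3 stretches are chr4:136143643-136143672 and chr4:136143742-136143771 (plus strand), with the motif first at -167 and at -68, and the Id2 stretch is chr12:25096306-25096335 (minus strand), with the motif from -231 to -226. Another CAGAC match lies at 8 to 12 in Chrd, and the Bmp4 window held none of these letters. GTCTAGAC occurred in 70 of all 32851 windows (0.213%) and in none of the 37 genes of the wider pathway list with a window. The other motifs are common, with GGCGCC in 11.9%, GCCGNCGC in 9.76% and CAGAC in 49.6% of windows. A match is a run of letters and no measure of binding.

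The rest of the pathway was read from a list of 52 further genes ordered by role, of which 44 were tested. In Eo+ vs ESC 27 were higher, 9 lower and 8 not called (61.4% higher and 20.5% lower), with a median log2 fold change of 0.95. In Eo− vs ESC 21 were higher and 9 lower (47.7% and 20.5%, median 0.37), and in Eo+ vs Eo− 24 were higher and 3 lower (54.5% and 6.82%, median 0.47). The 3 lower became 5 without ESC replicate 5 or 6, 5 with no filter on low values, 5 with the block over the sorted libraries and 6 with only both fractions in the fit. Among all protein-coding loci the shares higher and lower were 39.5% and 32.6%, 33.0% and 28.9%, and 26.4% and 21.2% in the same order. The genes named below are the 3 of each role with the highest mean FPKM in any group and, where a count calls for it, Bmpr1b and Smad9, added after their values were seen.

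Other ligand genes were low or absent. Of 11, 5 passed the filter, with mean levels of at most 1.68 FPKM in any group. Bmp5 was at 0.0344 to 0.109 CPM in ESC, 0.341 to 0.969 CPM in Eo−, and 18.4, 2.04, 4.78 and 4.10 CPM in Eo+. It rose by 6.26 ± 1.01 on the log2 scale in Eo+ vs ESC (adjusted p = 7.69e-05), by 5.64 without Eo+ replicate 1, and was also higher in Eo+ than in Eo− (3.25 ± 0.65, adjusted p = 0.00109). Between the fractions Bmp5 was higher by 2.62 without Eo+ replicate 1 and by 3.73 without Eo+ replicate 2. Its call in Eo− vs ESC (3.01 ± 1.10, adjusted p = 0.0286) was lost without any of the 4 ESC libraries or Eo− replicate 1 (adjusted p = 0.0528 to 0.0741). Bmp8b went the other way, with 2.95 to 4.80 CPM in ESC, 0.926 to 1.25 CPM in Eo− and 0.503 to 0.880 CPM in Eo+, a fall by 2.74 ± 0.23 on the log2 scale in Eo+ vs ESC (adjusted p = 1.27e-07). Bmp6 was not called in any comparison (adjusted p = 0.360, 0.940 and 0.452).

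Receptor genes were mostly higher in Eo+ than in ESC, with 3 of 4 type I and 3 of 3 type II genes called, where 35.8% of all loci were higher. In Eo− vs ESC 4 of 4 type I and 1 of 3 type II genes were higher (30.9% of loci), and in Eo+ vs Eo− 2 of 4 and 3 of 3 (23.0% of loci). The type I gene Bmpr1b was lower in Eo+ than in Eo− (-0.96 ± 0.18, adjusted p = 0.000792) and was not called in Eo+ vs ESC (-0.40 ± 0.19, adjusted p = 0.0765). Bmpr1a, the type I receptor of Bmp2 and Bmp4, was at 51.0 to 60.6 CPM in ESC, 73.2 to 92.6 CPM in Eo− and 102 to 115 CPM in Eo+ (log2 fold change 0.97 ± 0.08, adjusted p = 1.59e-07, in Eo+ vs ESC). Acvr1, another type I receptor, rose by 1.17 ± 0.11 in the same comparison (adjusted p = 7.04e-07). Acvr2a and Acvr2b, type II receptors that activins also use, rose by 1.03 ± 0.11 (adjusted p = 2.04e-06) and 1.39 ± 0.07 (adjusted p = 2.14e-09), and Bmpr2 by 0.91 ± 0.12 (adjusted p = 9.74e-06). Acvr2b was called in Eo− vs ESC (1.09 ± 0.07, adjusted p = 5.25e-08) but Acvr2a and Bmpr2 were not (adjusted p = 0.452 and 0.328). Acvrl1, a type I receptor of endothelium, was higher at day 3 than in ESC in both fractions (1.67 ± 0.44, adjusted p = 0.00341 in Eo+; 1.38 ± 0.44, adjusted p = 0.0145 in Eo−), and Eo− replicate 1, which had the highest blood and endothelium sum of the Eo− libraries, held its highest value (7.65 CPM). Between the fractions Acvrl1 was not called (0.29 ± 0.39, adjusted p = 0.560) but passed without that library (0.77, adjusted p = 0.0423). Of the co-receptors, Rgma rose by 1.91 ± 0.12 in Eo+ vs ESC (adjusted p = 1.05e-08), Rgmb was not called (adjusted p = 0.200), and Eng, whose locus also holds Ak1, fell by 1.31 ± 0.14 (adjusted p = 2.05e-06).

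Among the signal transducers, Smad1 stood out by size. It was at 12.9, 12.6, 14.6 and 11.4 CPM in ESC, 26.1, 22.1, 21.6 and 24.1 CPM in Eo−, and 96.9, 114, 70.5 and 116 CPM in Eo+. The groups did not overlap, and Smad1 rose by 2.92 ± 0.17 on the log2 scale in Eo+ vs ESC (adjusted p = 5.10e-09) and 2.05 ± 0.15 in Eo+ vs Eo− (adjusted p = 3.82e-07). Smad5, whose locus also holds Gm27301, rose by 1.03 ± 0.09 (adjusted p = 1.51e-07) and Smad4 by 1.14 ± 0.06 (adjusted p = 4.26e-09) in Eo+ vs ESC. All 4 pathway Smads were higher in Eo+ than in Eo−, against 23.0% of all loci, although Smad9 was only just past the threshold (0.71 ± 0.28, adjusted p = 0.0481) and its libraries overlapped. Smad9 also passed the filter of 0.1 FPKM only through Eo+ (0.113 FPKM on average, against 0.084 in ESC and 0.0675 in Eo−). Its call is thus not independent of the filter, and the count of 4 is not read as a result. Of the ubiquitin ligases that act on Smads, Smurf2, whose locus also holds Gm27322, rose by 0.77 ± 0.08 (adjusted p = 9.10e-07), while Smurf1 (-0.25 ± 0.11) was just short of the threshold (adjusted p = 0.0510), which it passed with edgeR (adjusted p = 0.0436) and DESeq2 (adjusted p = 0.0152) and without ESC replicate 5 or 6 (adjusted p = 0.0243 and 0.0111). Smurf1 also passed in limma with the replicate block (adjusted p = 0.00805), a filter of 1 CPM (adjusted p = 0.013) and DESeq2 size factors (adjusted p = 0.0253).

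Extracellular antagonists and modulators other than Nog and Chrd moved in both directions, with 9 of 14 higher and 4 lower in Eo+ vs ESC (64.3% and 28.6%, against 35.8% and 36.1% of all loci). Cer1, a secreted inhibitor of BMP, Nodal and Wnt ligands, was at 0.289, 0.252, 1.1 and 0.577 CPM in ESC, 15.5, 17.4, 13.0 and 18.6 CPM in Eo−, and 185, 248, 392 and 220 CPM in Eo+. Its log2 fold change of 9.09 ± 0.52 in Eo+ vs ESC (adjusted p = 4.85e-09) was larger than that of any of the 10 BMP genes, and in Eo− vs ESC it was 5.11 ± 0.54 (adjusted p = 3.06e-06). As for Chrd, Eo+ replicate 5 was its highest and replicate 1 its lowest Eo+ library. Fst, which encodes the activin and BMP binding protein follistatin, rose by 2.65 ± 0.32 in Eo+ vs ESC (adjusted p = 4.60e-06) and by 1.75 ± 0.32 in Eo− vs ESC (adjusted p = 0.000362). It was also higher in Eo+ than in Eo− (0.90 ± 0.28, adjusted p = 0.0185), a call lost without Eo+ replicate 2 (0.75, adjusted p = 0.0520) or Eo− replicate 5 (0.74, adjusted p = 0.0598). Fstl1 was higher in Eo+ than in ESC (0.54 ± 0.18, adjusted p = 0.0173), which did not hold without ESC replicate 2 or 6 or Eo+ replicate 1 (adjusted p = 0.0631, 0.0514 and 0.0530). Feeder-type genes were lower in the same comparison, in 8 of 9 tested, and their part in the antagonist genes that were lower was not tested.

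Bmp1 and Tll1 encode proteases that cleave chordin. Tll1 was at 2.84, 1.18, 2.32 and 0.993 CPM in ESC, 1.82, 1.69, 1.87 and 1.72 CPM in Eo−, and 10.4, 6.60, 8.26 and 10.7 CPM in Eo+. It rose by 2.38 ± 0.27 in Eo+ vs ESC (adjusted p = 2.81e-06) and by 2.31 ± 0.27 in Eo+ vs Eo− (adjusted p = 1.60e-05) on the log2 scale. Bmp1 was higher in Eo+ by 0.64 ± 0.22 than in ESC (adjusted p = 0.0160) and by 1.21 ± 0.23 than in Eo− (adjusted p = 0.000745), and its value in Eo− vs ESC (-0.57 ± 0.24, adjusted p = 0.0561) passed without ESC replicate 6 (-0.81, adjusted p = 0.00156), with edgeR (adjusted p = 0.0313) and with DESeq2 (adjusted p = 0.00750). That value also passed in limma with the replicate block (adjusted p = 0.0486), a filter of 1 CPM (adjusted p = 0.0426) and DESeq2 size factors (adjusted p = 0.0387).

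The other target genes showed both directions too. Msx1, a homeobox gene, was at 6.98, 4.07, 7.13 and 2.15 CPM in ESC, 18.6, 11.7, 5.73 and 13.9 CPM in Eo−, and 79.0, 59.6, 28.6 and 67.9 CPM in Eo+. All Eo+ libraries were above the rest, with log2 fold changes of 3.57 ± 0.47 against ESC (adjusted p = 1.25e-05) and 2.25 ± 0.39 against Eo− (adjusted p = 0.000365). Its call in Eo− vs ESC (1.32 ± 0.53, adjusted p = 0.0431) was lost without ESC replicate 2 or 6 or Eo− replicate 1, 2 or 6 (adjusted p = 0.0748 to 0.131). Hey1, a transcriptional repressor also known as a Notch target, rose by 1.71 ± 0.16 in Eo+ vs ESC (adjusted p = 3.23e-07). Smad7, the other inhibitory Smad and a target of both BMP and TGF-beta signals, was at 60.3, 48.8, 53.5 and 50.7 CPM in ESC, 32.2, 27.4, 28.9 and 31.6 CPM in Eo−, and 30.2, 20.8, 25.9 and 30.3 CPM in Eo+. It fell by 1.01 ± 0.11 in Eo+ vs ESC (adjusted p = 2.56e-06) and by 0.83 ± 0.11 in Eo− vs ESC (adjusted p = 2.42e-05), whereas Smad6 rose in Eo+, and the fractions did not differ past the threshold (-0.18 ± 0.12, adjusted p = 0.224).

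**Figure D5:**
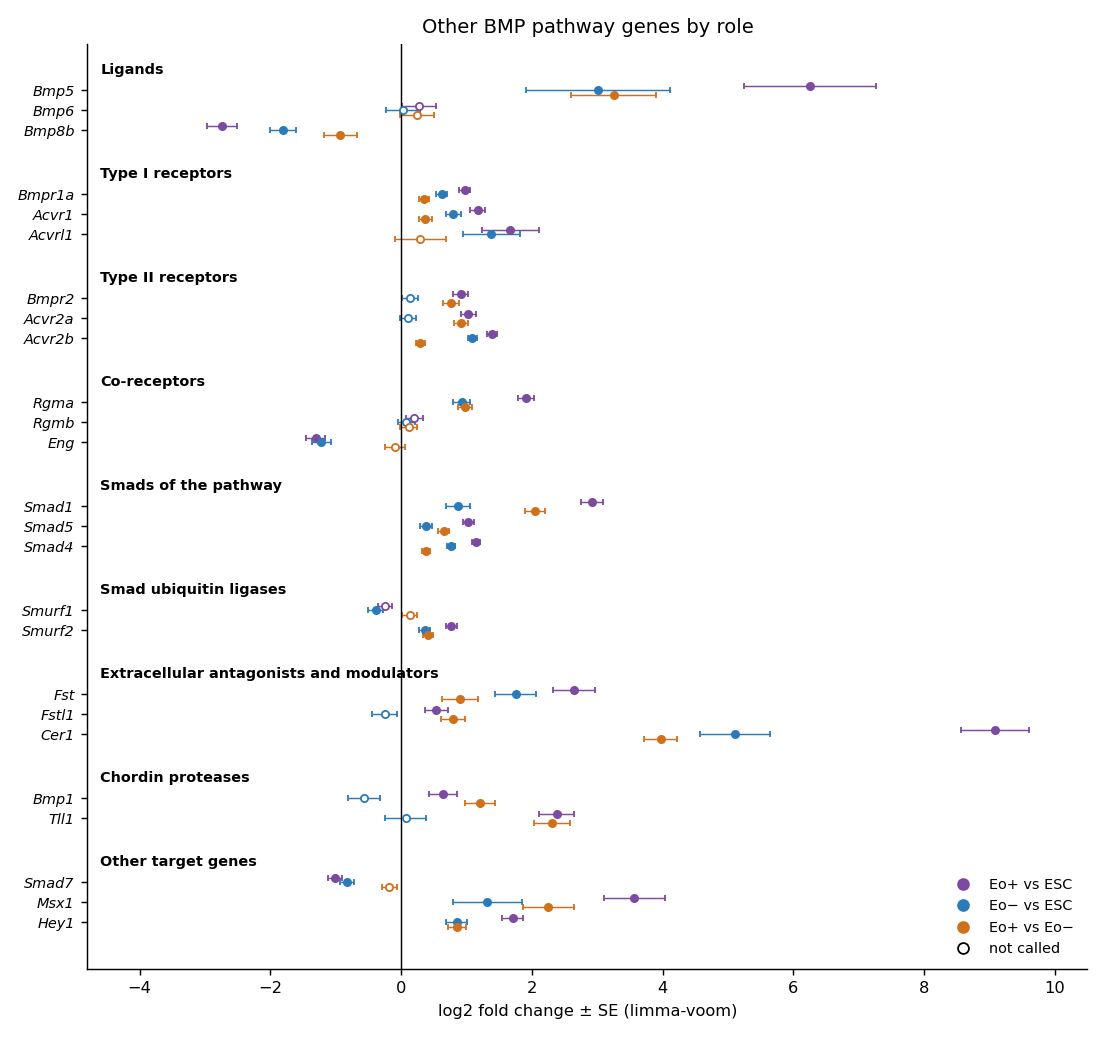
Log2 fold change with its SE of the 25 named genes of the wider BMP pathway list, grouped by role, in the 3 comparisons, with open markers where the gene was not called. Cer1 reaches 9.09 in Eo+ vs ESC, all 3 type II receptors lie right of 0 in Eo+ vs ESC, and Bmp8b, Eng and Smad7 lie left of 0.

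The protein-coding genes most alike each BMP gene over the 12 libraries were taken as the 3 with the smallest root mean square difference of mean-centred log2 CPM among 10943 loci. For Bmp2 they were Asb4, Col23a1 and Daam2 (0.497 to 0.534), for Bmp4 Phlda1, Itga9 and Gadd45g (0.416 to 0.477), and for Bmp7 Greb1l, Adamts9 and Pth1r (0.223 to 0.307). For Nog they were Pxdc1, Tnfsf9 and Efemp1 (0.305 to 0.353) and for Chrd 1700003E16Rik, Erich2 and Foxj1 (0.351 to 0.381). For Bambi they were Rbm20, Serpinh1 and Arid3a (0.171 to 0.203) and for Smad6 Ppic, Apcdd1 and Sept8 (0.239 to 0.257). For Id1 they were Mmp14, Sh3pxd2a and Arid3b (0.218 to 0.238), for Id2 Snx16, the joint locus of Ddit4l and Gm22468, and Pqlc3 (0.226 to 0.270), and for Id3 Mppe1, Obfc1 and Atl2 (0.108 to 0.113). None of the 10 BMP genes was among the 3 closest of another. The differences are read against the gene's own spread over the libraries, which was 2.19 for Bmp2, 0.981 for Bmp4, 0.586 for Nog, 0.429 for Id2 and 0.349 for Id3 on the same scale. These are descriptions of profiles over libraries of 3 groups, with no test.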

How the data were processed

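Poly(A) RNA-Seq of 12 libraries (4 ESC, 4 Eo−, 4 Eo+) was used. The authors mapped paired, stranded 100-base reads to mm10 with STAR, built transcripts with Cufflinks 2.2.1 and merged them with Ensembl genes by Cuffmerge, and used HTSeq 0.6.1 for strand-aware counting of reads in merged loci. The deposited table holds these raw counts, whole numbers without scaling, for 80012 loci, and the deposited transcript annotation gives exon positions in mm10 for 79655 of them. The 5 tally lines of the counter (22.4% to 26.2% of alignments not unique, 2.65% to 3.60% in no locus) entered neither library sizes nor tests. A deposited table of values normalised by the authors was not used, and 0 columns belonged to other samples.

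Here, the FPKM levels reported were computed from TMM-scaled counts and the summed exon length of a locus. The filter on low values used FPKM from library totals without TMM, since the TMM factors were computed on the loci that passed. Loci of protein-coding, annotated lncRNA or multi-exon non-annotated type with a mean FPKM over 0.1 in at least 1 group were tested (17922), with types from GENCODE. Following the study's methods, counts were transformed by voom (limma 3.58.1, edgeR 4.0.16, R 4.3.3) and all 12 libraries entered a fit with a mean for each group. The moderated test was two-sided (13.5 total degrees of freedom), with p adjusted by Benjamini-Hochberg over all loci tested. Adjusted p-values without a named tool are those of limma. The procedure was tested on simulated counts. Nothing in the labels says that the replicates are separate cultures beyond the 4 differentiation sets of the methods, so p-values measure the spread between these libraries. The floor of 3 counts covers counting error only, since reads carried no molecular identifiers.

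Named were all 10 BMP genes, the 3 genes of each role of the pathway list with the highest mean FPKM in any group, and the 3 genes most alike each member. Bmpr1b and Smad9 were named after their values were seen. Markers of ESCs, mesendoderm, feeder-type fibroblasts, visceral endoderm, early blood and endothelium, and neuroectoderm were read from lists of 4 to 10 genes. The genes and lists were chosen with earlier results of these data known. Motifs were searched in RefSeq start-site windows (GRCm38.p6). Alternatives were other scalings, other filters, edgeR's quasi-likelihood test, DESeq2 1.42.0, a fit of the 2 groups compared only, a replicate block, a 2-fold limit, each library left out in turn, and another length for FPKM.

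Whether equal numbers pair libraries was checked by the correlation of their deviations from the group means. For Eo− and Eo+ it was 0.644, 0.312, 0.392 and 0.442 for numbers 1, 2, 5 and 6, above 0.1 in every pair. Fractions of unequal number reached 0.304 (Eo− replicate 6 with Eo+ replicate 2) and 0.241 (Eo− replicate 2 with Eo+ replicate 6). A limit of 0.1 thus does not separate equal from unequal numbers, although no unequal pair reached 0.312. The sorted fractions were taken as paired in an added fit. Pairs with ESC ran from -0.142 to 0.483 and were not taken as paired, though the methods name 4 differentiation sets. A block over the 8 sorted libraries was therefore added after the data were seen, while the main fit and its p-values stayed unpaired.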

Additional observations from a re-analysis of the deposited data

Results flagged for a closer look

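In 105 groups of 4 libraries (10 BMP genes and 25 named pathway genes in 3 groups), 6 had a library far from the other 3, by Dixon's test at the 95% level. Chance flags about 1 in 20 such groups. Bmp2 was at 9.88 CPM in Eo− replicate 1 and at 3.16 to 3.79 CPM in the other Eo− libraries. Bmp5 was at 18.4 CPM in Eo+ replicate 1 and at 2.04 to 4.78 CPM in the others. Fstl1 was at 95.6 CPM in Eo− replicate 1 and at 61.8 to 64.9 CPM in the others. These 3 values fall in replicate 1, in which the sums of visceral endoderm and of blood and endothelium genes were the highest of each sorted fraction, and the part of those cells was not tested. Bmp6 was at 1.97 CPM in ESC replicate 6 against 1.44 to 1.49 CPM, Bmp8b at 0.880 CPM in Eo+ replicate 5 against 0.503 to 0.534 CPM, and Acvr2a at 13.2 CPM in Eo− replicate 2 against 15.5 to 15.6 CPM.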

How the results depend on the processing

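Of 610 fold changes of the 10 BMP genes recomputed under alternatives, 586 kept their side of the threshold, 6 lost it (Bmp4 in Eo− vs ESC, each with 1 library left out) and 18 newly passed it. Read at 2 decimals and with 0.00 not counted, the sign changed in 7 of the 586, all uncalled values of Nog or Id2 in Eo− vs ESC, and in 0 that passed the threshold. For the 25 named pathway genes 1494 of 1525 kept their side, 16 lost and 15 newly passed it, and the sign changed in 13, all uncalled (Bmp6, Rgmb, Eng and Tll1). With a 2-fold limit added, calls over all loci went from 12888 to 6830 (2925 higher, 3905 lower) for Eo+ vs ESC, from 11154 to 5069 (2142 and 2927) for Eo− vs ESC, and between the fractions from 8543 to 3789 (1096 and 2693). Under the same limit BMP genes called in Eo− vs ESC went from 4 to 2, and pathway genes from 30 to 18 there and from 27 to 10 in Eo+ vs Eo−.

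With the replicate number as a block over all 12 libraries, BMP genes called in Eo− vs ESC went from 4 to 7 (6 higher, 1 lower), adding Bmp2 (adjusted p = 0.00499), Bambi (0.0139) and Smad6 (0.0252), and Id2 passed in Eo+ vs ESC (0.0418), while calls over all loci in Eo− vs ESC went from 11154 to 11839. Neither the labels nor the methods say that a number marks a differentiation set, and not every pair with ESC deviated together. The block over the 8 sorted libraries called 9 BMP genes against 8 and 10392 of all loci against 8543, and apart from Id2 it changed no call of a BMP gene. That fit also leaves out ESC. Between the fractions, leaving out ESC without a block gave 8980 loci, and the block over all 12 libraries gave 9555. Leaving out each library in turn gave 3 to 6 BMP genes called in Eo− vs ESC, 7 to 8 for Eo+ vs ESC and always 8 between the fractions. Library totals and DESeq2 size factors moved the median of all loci by at most 0.07 on the log2 scale. Of 60 FPKM values 9 moved by more than the spread between libraries when the length or scaling was changed. All 10 BMP genes lay far above the floor of 3 counts in every library.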
